A study of Caenorhabditis elegans with 6 samples.

Results

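The glutathione S-transferase family of Caenorhabditis elegans was followed in whole worms of 3 strains on 2 bacterial diets. The labels give their stage as L4, the last larval stage. Members were all genes whose WormBase symbol is gst- or gsto- followed by a number. This gave 47 genes, 44 gst- and 3 gsto-, of the 46778 gene IDs counted. All 47 were protein-coding in the WBcel235 annotation. The strains were N2 wild type and the scav-4 mutants unk59 (CGZ413) and unk49 (CGZ337). scav-4 encodes a scavenger receptor of the CD36 family, and the labels do not describe the lesion in either allele or whether the mutants share other changes. Worms ate either E. coli OP50, the usual laboratory food, or the Microbacterium sp. isolate JUb74, a diet high in branched chain fatty acids by the title of the series. Wild type and unk59 were grown on each food and unk49 on OP50, with 2 RNA-seq libraries for each of these 5 groups (10 libraries). unk49 on JUb74 was not analysed here.

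Glutathione S-transferases join the thiol of glutathione to electrophilic molecules such as lipid peroxidation products and plant or bacterial toxins, and the conjugates are then exported. Several nematode members, gst-4 among them, are induced through the transcription factor SKN-1, the worm counterpart of mammalian Nrf proteins, and much of the family is expressed in the intestine. The omega class, which includes the gsto genes, reduces disulfides and dehydroascorbate rather than conjugating most substrates, and the zeta class works in tyrosine breakdown.

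Each library had 21937088 to 22692632 read pairs assigned to genes, so depth differed by a ratio of at most 1.03. scav-4 itself was counted at 1031 and 803 read pairs in wild type on OP50, 688 and 234 in wild type on JUb74, 775 and 802 in unk59 on OP50, 890 and 761 in unk59 on JUb74, and 141 and 162 in unk49. Nothing in the labels tells whether both libraries of a group were separate cultures, so the p-values measure the spread between these libraries, which may be technical. The groups also stood apart in developmental markers, although the labels call all of them L4. The summed level of 12 oocyte and eggshell genes, in CPM (counts of a gene relative to all assigned pairs, scaled between libraries), was 1749 to 2843 in unk59 on JUb74 and 2287 to 6535 in unk49, against 101 to 104 in wild type on OP50, 13.02 to 19.3 in wild type on JUb74 and 17.96 to 29.97 in unk59 on OP50. Yolk genes (6 markers) summed to 2058 to 4423 CPM in wild type on OP50, 5.35 to 22.97 in wild type on JUb74, 73.2 to 5410 in unk59 on OP50, and 9721 to 40440 in the remaining groups. The sum of 9 moulting genes was 127 to 188 in unk59 on JUb74 and 782 to 1023 in unk49, against 2401 to 4666 elsewhere. On the first principal component of all genes, which held 75.6% of the variance, unk59 on JUb74 and unk49 lay apart from the other 3 groups. Among those, wild type on OP50 (-46.6 and -49.7) and the second unk59 OP50 library (-73.6) lay apart from wild type on JUb74 (-146 and -130) and the first unk59 OP50 library (-132). The part of these stage differences in the results for the family was not tested. In whole worms, fewer cells of a type and less RNA per cell cannot be told apart.

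The family ranged from some of the better expressed genes of the worm to genes with almost no reads. Averaged over all libraries, 3 members stood at 100 CPM or more, 16 between 10 and 100, 15 between 1 and 10, and 13 below 1. Per kilobase of exon the highest mean levels were those of gst-1 (305 CPM per kb), gst-27 (257), gst-10 (199), gst-26 (145) and gst-13 (120). gst-1 is a pi-class enzyme linked in worms to protection of dopamine neurons from manganese, and gst-10 conjugates 4-hydroxynonenal, a toxic product of lipid peroxidation. In wild type on OP50 the order differed at the top, with gst-10 at 419 CPM per kb, gst-1 at 357 and gst-27 at 351. The libraries of these 3 genes overlapped in that group, so the order among them was within the spread.

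Most members encode proteins of nearly one size. The longest coding sequence of a member had a median of 209 codons and a range of 174 to 309, and 39 of the 47 lay between 200 and 220. Chromosome II carried 25 members, V 9, III 4, IV 4, X 3 and I 2. With neighbours at most 50 kb apart and at least 3 members required, 4 tandem groups held 26 members. A run of 9 genes at II:13608154-13630887 (gst-20, gst-24, gst-15, gst-14, gst-12, gst-16, gst-19, gst-17 and gst-18) and a run of 9 at II:15163817-15185389 (gst-26, gst-27, gst-28, gst-29, gst-39, gst-31, gst-32, gst-34 and gst-35) each lay on the minus strand throughout. The other groups were gst-6, gst-7, gst-8, gst-9 and gst-30 at II:4879891-4935054, and gst-3, gst-2 and gst-4 within 3720 bases at IV:10139380-10143099. Coordinates are those of WBcel235. Reads that map to several places were not counted, so tandem copies that share sequence are uncertain, gst-17 and gst-18 most of all, since their exons overlap over 351 bases on the same strand. The exons of gst-4 overlap dhs-12 over 65 bases on the same strand, and those of gst-36 overlap scav-5 over 93 bases on the other strand.

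Added over all members, the family stood at 2046 and 1555 CPM in wild type on OP50 and at 1209 and 794 CPM in wild type on JUb74. In unk59 it stood at 1576 and 2178 CPM on OP50 and at 940 and 951 CPM on JUb74, and in unk49 on OP50 at 1074 and 1370 CPM. All JUb74 libraries lay below every wild-type and unk59 OP50 library, but the first wild-type JUb74 library (1209 CPM) lay above the first unk49 library (1074 CPM). The unk49 libraries lay below all 4 other OP50 libraries. gst-10 made up 18.4% and 14.5% of the sum in wild type on OP50 and 12.9% and 16.96% in unk59 on OP50. Its share was 9.49% and 3.60% in wild type on JUb74, 3.86% and 3.83% in unk49, and 0.943% and 1.27% in unk59 on JUb74. Without gst-10 the means were 1500 ± 240 CPM in wild type on OP50 and 930 ± 233 on JUb74, 1591 ± 308 and 935 ± 5.81 in unk59, and 1175 ± 201 in unk49 (SD, n = 2 each).

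**Figure D1:**
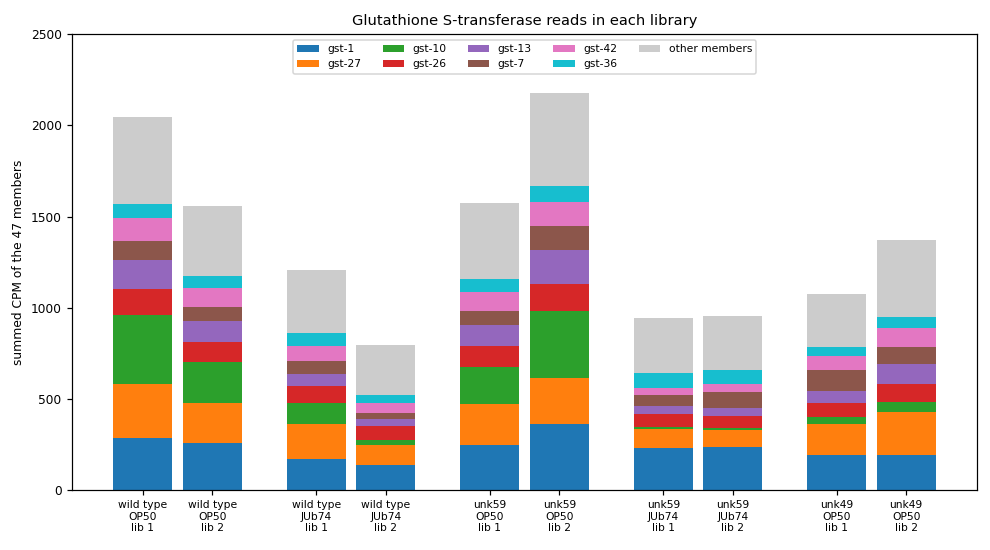
Summed level of the glutathione S-transferase genes in CPM (vertical axis) in each of the 10 libraries (bars, grouped by strain and food), divided into the most abundant members and the rest. The JUb74 bars end at 794 to 1209 CPM, below the wild-type and unk59 bars on OP50 at 1555 to 2178, and the gst-10 segment nearly vanishes in unk59 on JUb74.

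Of the 47 members, 42 had enough reads to be tested. gst-17, gst-18, gst-25, gst-32 and gst-37 did not. gst-32 reached at most 11 reads in a library, gst-25 at most 7, gst-18 at most 5, and gst-17 and gst-37 at most 3. All comparisons used the quasi-likelihood test of edgeR, with p-values adjusted by Benjamini-Hochberg over all 15950 tested genes and called at 0.05.

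The first comparison set JUb74 against OP50 in wild-type worms. Of the 42 tested members, 6 changed, 3 up and 3 down, which is 14.3% against 8.94% of all genes tested (2.65% of genes higher and 6.29% lower). The members that rose were gst-44, gst-24 and gst-34, all of low abundance, and those that fell were gst-13, gst-20 and gst-1. The median log2 fold change was -0.03 over the tested members and -0.00 over all genes.

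gst-44 (V:16390891-16392490, plus strand), a member related to the omega class, was counted at 17 and 17 reads on OP50 and 163 and 81 on JUb74, or 0.779 and 0.765 against 7.83 and 3.44 CPM. Both JUb74 libraries lay far above both OP50 libraries, although they differed from each other. It rose by 2.86 on the log2 scale (SE 0.465, adjusted p = 0.0190). gst-24 (II:13610443-13611366, minus strand), one of the worm enzymes that act on 4-hydroxynonenal, went from 5.45 and 7.201 CPM to 17.8 and 14.6 CPM, again with no overlap, and rose by 1.36 (SE 0.255, adjusted p = 0.0236). gst-34 (II:15179906-15183239, minus strand) had 2 and 2 reads on OP50 and 20 and 13 on JUb74. It rose as well (adjusted p = 0.0394), with a ratio of normalised counts of 8.19 and a 95% exact interval of 2.91 to 31.8 that covers counting error only.

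gst-13 (II:9231457-9232344, plus strand) fell from 162 and 112 CPM on OP50 to 62.1 and 36.6 CPM on JUb74, a log2 change of -1.47 (SE 0.351, adjusted p = 0.0362). gst-20 (II:13608154-13609824, minus strand) fell from 72.0 and 51.2 CPM to 31.8 and 23.01 CPM, a change of -1.17 (SE 0.239, adjusted p = 0.0253). gst-1 (III:9059331-9060181, plus strand), the most abundant member by its mean, fell from 281 and 254 CPM to 166 and 135 CPM, a change of -0.83 (SE 0.211, adjusted p = 0.0437). In all 3 the libraries of the foods were fully apart, which adds no support because the test picked them on these same values.

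gst-10 (V:2561690-2564645, plus strand) had the largest fold difference among the abundant members but did not pass. It stood at 377 and 226 CPM on OP50 and at 114.7 and 28.6 CPM on JUb74, a log2 difference of -2.07 (SE 0.573, adjusted p = 0.0540). The groups did not overlap, but the JUb74 libraries differed from each other by a larger ratio than the OP50 libraries. gst-4, the gene behind the standard fluorescent reporter of oxidative stress in worms, stood at 18.6 and 18.0 CPM on OP50 and 7.45 and 6.20 CPM on JUb74 (log2 difference -1.42, adjusted p = 0.110). Both gst-4 groups were tight and did not overlap, and the difference did not pass the test. gst-42, the zeta-class counterpart of maleylacetoacetate isomerase in tyrosine breakdown, was at 127 and 102 CPM on OP50 and at 81.8 and 50.9 on JUb74 (-0.78, adjusted p = 0.103). gst-5 was at 77.4 and 45.0 CPM on OP50 and at 37.2 and 31.0 on JUb74 (-0.84, adjusted p = 0.107). gsto-1, of the omega class, went the other way, at 26.2 and 20.7 CPM on OP50 and 36.2 and 37.1 on JUb74 (0.64, adjusted p = 0.160).

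Among the abundant members the estimates leaned downward. Of the 19 members at 10 CPM or more, 17 had a negative estimate in wild type, 15 were lower in both JUb74 libraries than in both OP50 libraries, and 3 passed the test, all of them down. Among all 8450 tested genes at that abundance 33.9% were lower in every JUb74 library, 4.47% were called lower and 2.92% higher. The median log2 fold change was -0.78 over these members and -0.03 over those genes. Of the 23 less abundant members 3 rose and 0 fell, against 2.33% and 8.35% of the 7500 tested genes under 10 CPM. Stage markers moved in the same comparison: 6 of 12 oocyte and eggshell, 3 of 8 sperm and 5 of 6 yolk markers fell and none of these rose (0 in each list). Sperm markers summed to 20.3 to 21.8 CPM on OP50 and 1.92 to 1.95 on JUb74, where spe-38 was at 0. The moulting markers were mixed: of 9, 2 were called lower and 0 higher, with a median log2 fold change of 0.41. The cuticle collagen bli-1 stood at 417 to 472 CPM on OP50 against 0.297 to 2.16 on JUb74. By contrast mlt-11, noah-1, noah-2, dpy-7 and ptr-4 were higher in both JUb74 libraries than in both OP50 libraries, with no call among them. The share of all genes higher in this way was not counted. The part of all these stage markers in the family's values was not tested. The calls rested on few libraries: leaving out either wild-type OP50 library left 0 of the 6, leaving out the second wild-type JUb74 library left 1, and leaving out the first or second unk59 JUb74 library, which only share the estimate of spread, left 3 or 2. Without the first wild-type JUb74 library the gst-44 change was 2.14, and the calls for gst-13, gst-24, gst-34 and gst-1 were lost.

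**Figure D2:**
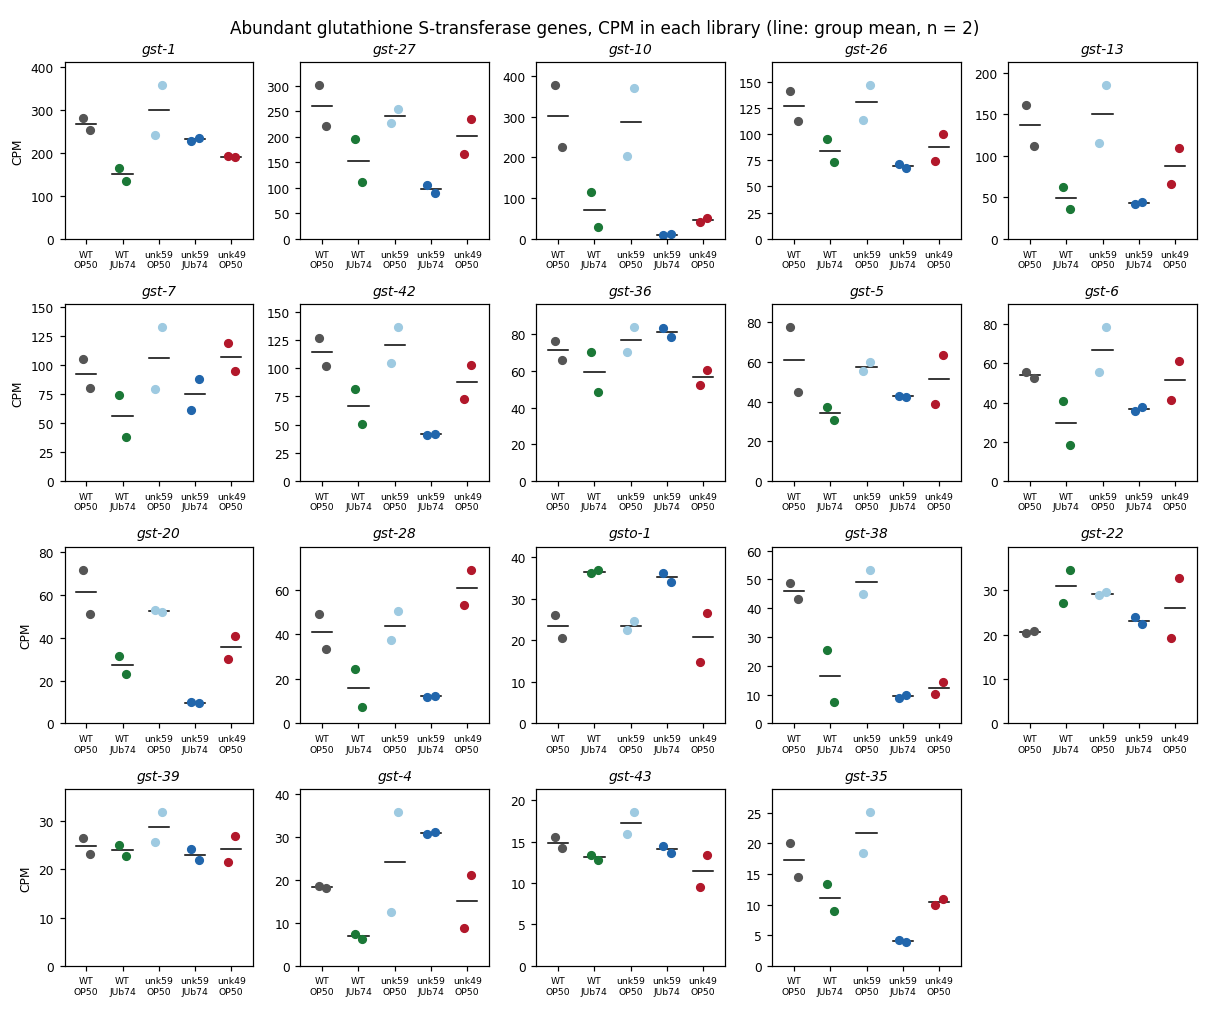
CPM (vertical axis, linear from 0, one scale for each gene) of the 19 members at 10 CPM or more, in the 2 libraries of each strain and food (points, with the group mean as a line). Most panels are lower on JUb74 than on OP50 in wild type and unk59; gst-10 drops furthest, to 8.86 and 12.1 CPM in unk59, while gsto-1 is higher on JUb74.

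In the same food comparison in unk59 worms most tested members were called, as were most of all genes tested. Of the 42 tested members 24 changed, 8 up and 16 down, or 57.1% against 59.8% of all genes tested, a share close to that background. Called members leaned downward, with 38.1% lower against 26.3% of all genes and 19.0% higher against 33.5%. The median log2 fold change was -0.35 over the members and 0.08 over all genes.

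gst-10 fell most, from 203 and 369 CPM on OP50 to 8.86 and 12.1 CPM on JUb74, a log2 change of -4.77 (SE 0.649, adjusted p = 0.00032). Its JUb74 libraries were tight and lay far under either OP50 library. gst-35 fell from 18.4 and 25.2 CPM to 4.20 and 3.82 (-2.44, adjusted p = 0.000167), and gst-20 from 53.0 and 52.0 CPM to 9.98 and 9.48 (-2.43, adjusted p = 9.36e-05). gst-38 (V:15915162-15916070, minus strand), a gene often used as a readout of SKN-1 activity, fell from 44.9 and 53.4 CPM to 8.82 and 10.1 (-2.38, adjusted p = 0.00226). In each of these the OP50 and JUb74 libraries were far apart, and each call held in all 17 alternative analyses.

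gst-40 fell from 6.19 and 3.87 CPM to 1.11 and 1.19 (-2.12, SE 0.33, adjusted p = 0.00062). gst-28 fell from 37.2 and 50.6 CPM to 12.03 and 12.5 (-1.84, SE 0.471, adjusted p = 0.00819). gst-42, the tyrosine-breakdown enzyme, fell from 105 and 136 CPM to 41.3 and 41.7 (-1.54, SE 0.272, adjusted p = 0.00121). gsto-2, an omega-class gene, fell from 2.18 and 2.24 CPM to 0.814 and 0.657 (-1.58, SE 0.348, adjusted p = 0.0038). The remaining members that fell were gst-11, gst-13, gst-16, gst-23, gst-26, gst-27, gst-29 and gst-33, with log2 changes of -1.83 to -0.91. All 16 had libraries that did not overlap between the foods. Called members, here and below, were picked by a test on these same values, so such separation adds no support. Of all tested genes at 10 CPM or more, 48.1% were lower in every JUb74 library of unk59. Of the 16 fallen members, 9 were at that abundance and 7 below it. The share for genes under 10 CPM was not counted.

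The members that rose in unk59 on JUb74 were all of low abundance. gst-9 rose from 1.42 and 2.72 CPM to 8.26 and 6.49 (1.83, SE 0.385, adjusted p = 0.00304), gst-15 from 1.12 and 0.859 CPM to 3.55 and 4.15 (1.96, SE 0.691, adjusted p = 0.0339), and gst-3 from 1.42 and 1.43 CPM to 3.47 and 3.28 (1.24, SE 0.359, adjusted p = 0.0144). gsto-3, the remaining gsto gene, rose from 6.24 and 4.72 CPM to 12.2 and 8.74 (0.93, SE 0.289, adjusted p = 0.0198). gst-30 (II:4933883-4935054, minus strand), another gene induced by SKN-1, went from 9 and 9 reads to 48 and 55 (2.27, SE 0.502, adjusted p = 0.00395). gst-8, which acts on 4-hydroxynonenal, went from 2 and 2 reads to 16 and 18 (adjusted p = 0.00555), a ratio of 7.24 with a 95% exact counting interval of 2.58 to 28.1. gst-19 went from 5 and 5 reads to 20 and 73, and gst-41 from 3 and 4 reads to 28 and 36. Of these, gst-19 was the most spread within JUb74. Without the second unk59 JUb74 library it was at 1.76 on the log2 scale and not past the threshold. Of the 24 calls in unk59, 13 held in all 17 alternatives.

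gst-4 showed no settled food difference in unk59. It stood at 12.4 and 35.7 CPM on OP50 and at 30.6 and 31.1 CPM on JUb74 (log2 difference 0.36, adjusted p = 0.538), so the OP50 libraries bracketed the JUb74 libraries. The estimate was -0.22 without the first unk59 OP50 library and 1.30 without the second. gst-1 was at 243 and 359 CPM on OP50 and 229 and 236 on JUb74 (-0.37, adjusted p = 0.152). gsto-1 was at 22.5 and 24.6 CPM on OP50 and 36.3 and 34.2 on JUb74 (0.58, adjusted p = 0.0792), close to its values in wild type.

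In unk59 too the abundant members leaned downward. Of the 19 abundant members 9 fell and 0 rose, against 33.7% and 23.3% of all genes at that abundance, and 15 were lower in both JUb74 libraries, against 48.1% of those genes. Their median log2 fold change was -0.86, against -0.17 over those genes. Of the 23 less abundant members 8 rose and 7 fell, or a smaller share up and a larger share down than the 45.0% and 18.0% of all tested genes under 10 CPM. The wild-type and unk59 food comparisons share no library. In both of them, 13 of the 19 abundant members were lower in every JUb74 library than in every OP50 library, or 68.4%, against 13.9% of all tested genes at that abundance. These were gst-1, gst-5, gst-6, gst-10, gst-13, gst-20, gst-26, gst-27, gst-28, gst-35, gst-38, gst-42 and gst-43. By the test, gst-13 and gst-20 fell in both genotypes, which is 33.3% of the 6 wild-type calls and 8.33% of the 24 unk59 calls. Over all genes, those called in both with one direction were 19.8% of the wild-type calls and 2.95% of the unk59 calls.

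Tissue markers moved in the same unk59 comparison. Of 9 intestinal markers 7 fell, among them the gut regulator elt-2, against 26.3% of all genes, and their summed level was 19622 to 20931 CPM on OP50 and 7668 to 9503 on JUb74. No intestinal marker was at 0 in any group, and asp-1 made up most of the sum. pho-1 went the other way, at 134 to 168 CPM on OP50 and 219 to 243 on JUb74, and was not called. All 5 muscle markers and all 9 moulting markers fell, while all 12 oocyte and eggshell and all 8 sperm markers rose. In wild type, where 0 of 9 intestinal markers were called, the sum was 15872 to 18662 CPM on OP50 and 14307 to 25906 on JUb74. The part of tissue proportions in the family's values was not tested.

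**Figure D3:**
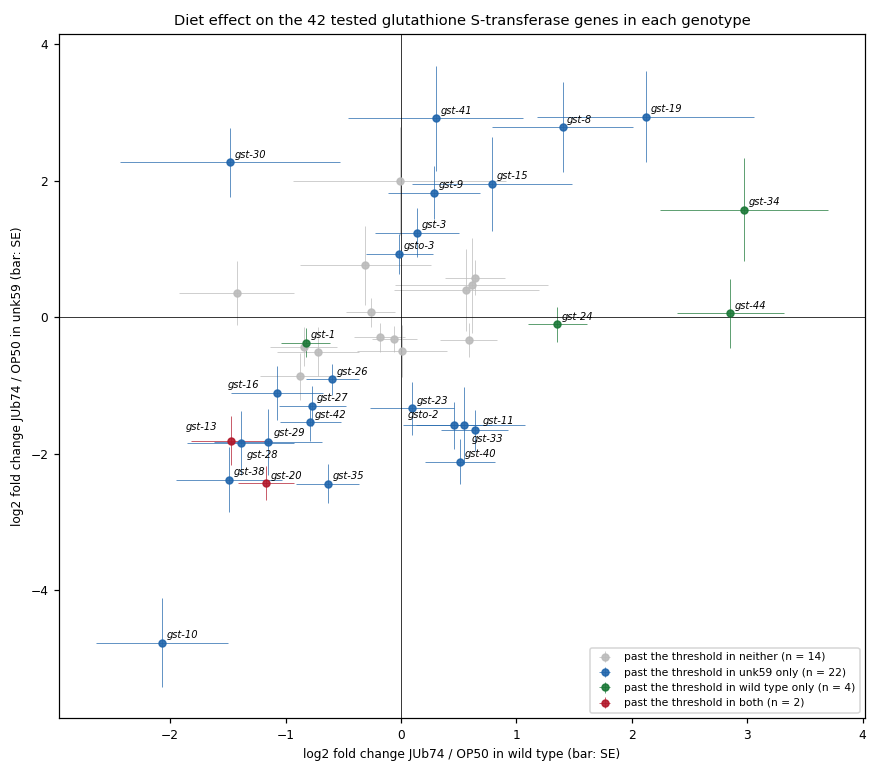
Fitted log2 fold change of JUb74 over OP50 in wild type (horizontal axis) and in unk59 (vertical axis) for the 42 tested members, with standard errors as bars and colours for the threshold passed. gst-13 and gst-20 passed in both, gst-10 lies lowest in unk59, and gst-44 and gst-24 lie near 0 in unk59; the values of gst-8, gst-30 and gst-34 rest on groups with few reads.

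**Figure D4:**
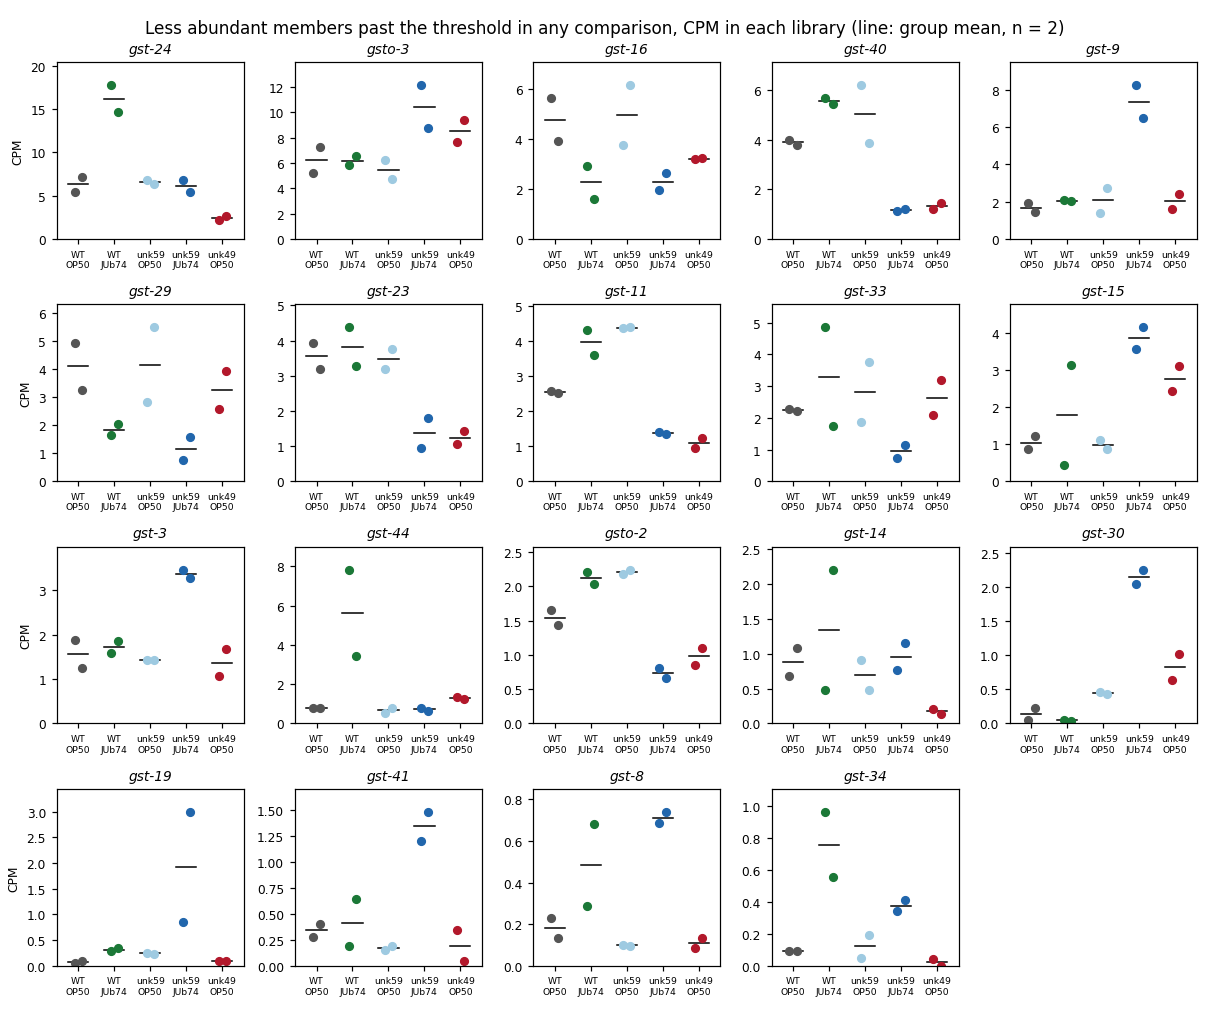
CPM (vertical axis, one scale for each gene) of the 19 less abundant members past the threshold in any comparison, in the 2 libraries of each strain and food (points, with the group mean as a line). gst-44 is high in wild type on JUb74 and low in the other groups, while gst-9 and gst-30 are highest in unk59 on JUb74.

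Whether the food effect differed between unk59 and wild type was tested as an interaction. It passed for 10 of 42 members, or 23.8% against 43.3% of all genes. It was negative for 8 (20% of all genes) and positive for 2 (23.3% of all genes). gst-44 rose with JUb74 in wild type and was not called in unk59, at 11 and 17 reads on OP50 and 19 and 15 on JUb74, giving an interaction of -2.80 (SE 0.689, adjusted p = 0.00960). gst-24, which also rose in wild type, stood at 6.85 and 6.35 CPM on OP50 and 6.81 and 5.46 on JUb74 in unk59 (interaction -1.46, SE 0.36, adjusted p = 0.00961). For gst-40, gst-11 and gsto-2 the estimate was positive but not called in wild type and negative in unk59 (0.51, 0.64 and 0.46 against -2.12, -1.66 and -1.58), with interactions of -2.63, -2.30 and -2.04 (adjusted p = 0.0014, 0.00195 and 0.00757). For gst-10, gst-35 and gst-20 the estimate was negative in both and more so in unk59, with interactions of -2.70, -1.81 and -1.26. The gst-10 interaction was -1.37 and not past the threshold without the first wild-type JUb74 library, whose gst-10 level was the higher of that group, and it was also lost without the second wild-type OP50 library, the second unk59 OP50 library or either unk59 JUb74 library. gst-9 and gst-30 had positive interactions, and that of gst-30 rests on 1 read in each wild-type JUb74 library.

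On OP50 no difference between unk59 and wild type was detected in any tested member. Of the 42 members 0 passed by edgeR's quasi-likelihood test and 0 by DESeq2, and 0.0125% of all genes were called (0.00% higher). By the edgeR test 2 members had an unadjusted p below 0.05, against 1845 of all 15950 genes. The unk59 OP50 libraries stood far apart in summed yolk markers, at 73.2 and 5410 CPM, so differences could be missed. The median log2 fold change was 0.09 over the members and 0.04 over all genes. gst-10, at 377 and 226 CPM in wild type and 203 and 369 CPM in unk59, had overlapping libraries, and so did gst-4 at 18.6 and 18.0 against 12.4 and 35.7 CPM.

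On JUb74 the same genotypes differed at 17 of 42 members, 7 higher and 10 lower in unk59, or 40.5% against 59.0% of all genes (33% higher and 26.1% lower). gst-4 was higher in unk59, at 30.6 and 31.1 CPM against 7.45 and 6.20 CPM in wild type (2.18, SE 0.503, adjusted p = 0.00482), with tight groups that lay far apart. gst-30 had 48 and 55 reads in unk59 and 1 and 1 in wild type (adjusted p = 0.000194), a ratio of 47.9 with a 95% exact counting interval of 12.9 to 401. gst-1 was higher by 0.62 (SE 0.21, adjusted p = 0.0285), and gst-9, gst-19, gst-3 and gsto-3 were higher by 1.84, 2.59, 0.96 and 0.75. gst-19 was at 1.45 and not past the threshold without the second unk59 JUb74 library, and the gst-3 and gsto-3 calls were each lost in 9 of 17 alternatives.

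Among the members that were lower in unk59 on JUb74, gst-44 had the largest difference, at 0.814 and 0.616 CPM against 7.83 and 3.44 in wild type (-2.97, SE 0.466, adjusted p = 0.000579). gst-10 followed at 8.86 and 12.1 against 114.7 and 28.6 CPM (-2.77, SE 0.596, adjusted p = 0.00331). Without the first wild-type JUb74 library the difference was -1.45 for gst-10 and -2.26 for gst-44, both still past the threshold, and -0.88 for gst-33, which no longer passed. gst-40 was at 1.11 and 1.19 against 5.67 and 5.43 CPM (-2.26, SE 0.33, adjusted p = 0.000387), groups that were each tight and well apart. gst-11, gst-20, gst-23, gst-24, gst-33, gst-35 and gsto-2 were also lower, with log2 differences of -1.80 to -1.40. The comparison shares the unk59 JUb74 libraries with the food comparison in unk59, so these lists are not independent.

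The unk49 allele on OP50 was compared with wild type and with unk59 on the same food. Against wild type 9 of 42 members passed, 1 higher and 8 lower, or 21.4% against 46.3% of all genes. 19.0% of the members were lower and 2.38% higher, against 19.1% and 27.2% of all genes. The median log2 fold change was -0.38 over the members and 0.11 over all genes. The latter moved to 0.15 with median-ratio scaling and to -0.09 with upper-quartile scaling, so differences here are read relative to it. Of the 9 intestinal markers 3 were lower in unk49 (elt-2, pept-1 and act-5). Their sum, 18042 to 19667 CPM against 15872 to 18662 in wild type, was carried by asp-1, at 14602 to 15897 CPM against 10683 to 13250. The part of these markers in the results was not tested.

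Among the called members gst-10 again had the largest log2 difference downward, at 41.5 and 52.5 CPM in unk49 against 377 and 226 in wild type (-2.68, SE 0.586, adjusted p = 0.00572). gst-38 was at 10.2 and 14.5 against 48.8 and 43.2 CPM (-1.90, SE 0.465, adjusted p = 0.00941), and gst-40 at 1.20 and 1.46 against 3.99 and 3.78 CPM (-1.54, SE 0.327, adjusted p = 0.0049). gst-24 was at 2.23 and 2.61 against 5.45 and 7.201 CPM (-1.39, SE 0.267, adjusted p = 0.00325). In each the unk49 libraries lay wholly below those of wild type. gst-23, gst-11 and gst-20 were also lower (-1.52, -1.22 and -0.79), and gst-14 had 5 and 3 reads against 15 and 24 (-2.31, adjusted p = 0.0455). The gst-14 call was lost in 9 of the 16 alternatives that tested it. Of the 9 calls, 3 held in every alternative, those for gst-10, gst-40 and gst-24. gst-30 was higher, with 15 and 23 reads against 1 and 5 (2.56, SE 0.617, adjusted p = 0.00887). Without the first wild-type OP50 library 4 members passed, gst-30 not among them (1.85), and without the second gst-30 was at 4.01.

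Against unk59 on OP50, unk49 was lower at 10 of 42 members and higher at 0, or 23.8% against 54% of all genes (23.8% of all genes were lower and 30.2% higher). The median was -0.45 over the members and 0.03 over all genes. The log2 difference was -2.61 for gst-10 (SE 0.585, adjusted p = 0.00501), -2.001 for gst-11 (adjusted p = 0.000816), -1.998 for gst-38 (adjusted p = 0.00612) and -1.91 for gst-40 (adjusted p = 0.00136). For gst-23, gst-24, gsto-2, gst-35, gst-1 and the zeta-class gst-43 it was -1.48, -1.45, -1.17, -1.06, -0.65 and -0.59. Libraries of the strains did not overlap in any of the 10, which adds no support because the test picked them on these same values. The gst-43 call was lost in 15 of 17 alternatives, the gst-1 call in 5, and both under median-ratio scaling, and 6 members passed without the second unk59 OP50 library or without the first unk49 library.

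The unk49 against wild-type comparison on OP50 shares no library with the food comparison in unk59. The 7 members called in both had the same direction in both, with gst-10, gst-11, gst-20, gst-23, gst-38 and gst-40 lower and gst-30 higher. They are 77.8% of the 9 calls for unk49 and 29.2% of the 24 calls for unk59. Over all genes the corresponding shares were 78.1% and 60.5%, and 98.2% of the genes called in both had one direction, so for the unk49 calls the share among members was close to that background. unk59 on JUb74 and unk49 on OP50 are also the groups with high oocyte and low moulting markers. In these 2 groups gst-38 stood at 10.2 and 14.5 CPM and at 8.82 and 10.1, whereas gst-28 stood at 53.0 and 69.0 CPM in unk49 and at 12.03 and 12.5 in unk59 on JUb74, a contrast of food and allele together that was not tested.

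Calls within the tandem groups are read against 33.5% of all genes higher and 26.3% lower in the unk59 food comparison. In unk59 on JUb74, the run at II:15163817-15185389 had 5 of its 8 tested genes lower and 0 higher, and the run at II:13608154-13630887 had 2 of 7 higher (gst-15 and gst-19) and 2 lower (gst-16 and gst-20). The group at II:4879891-4935054 had 3 of 5 higher and 0 lower, with gst-6 and gst-7, its abundant members, not past the threshold. In the compact group on IV only gst-3 rose with the food in unk59. Of its neighbours, gst-2 had 3 and 3 reads on OP50 and 17 and 12 on JUb74 (adjusted p = 0.0518).

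**Figure D5:**
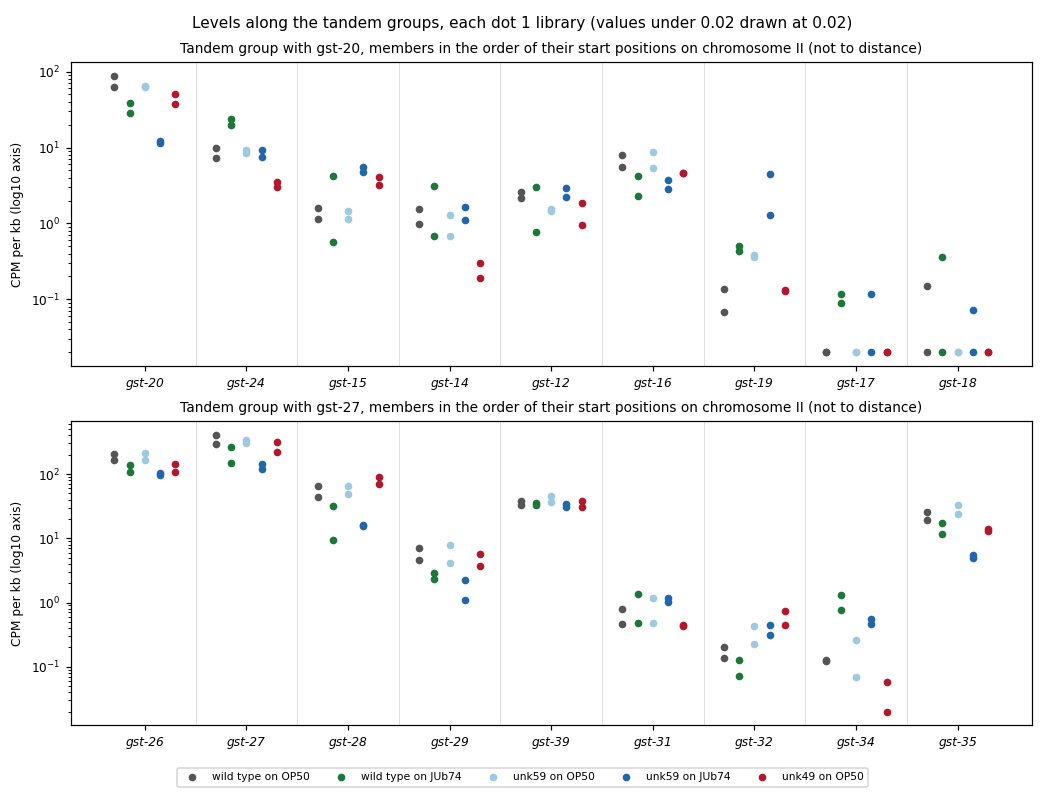
CPM per kb (vertical axis, log10) of each member of the 2 tandem runs of 9 genes on chromosome II, in gene order, with each library as a point coloured by strain and food. Neighbours differ by orders of magnitude, from gst-27 down to gst-17 and gst-18, and gst-20 and gst-35 are lowest in unk59 on JUb74 while gst-15 is not.

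Genes that feed or follow the transferases were counted against the same backgrounds. These were 2.65% of all genes higher and 6.29% lower in wild type, and 33.5% and 26.3% in unk59. Whether calls in these gene lists held in the alternative analyses is not given here. Of 16 tested genes for glutathione synthesis and redox enzymes, 0 rose and 1 fell with JUb74 in wild type, and 4 rose and 4 fell in unk59. The gene that fell in wild type was gstk-1, a kappa-class transferase, at 77.5 to 147 CPM on OP50 and 26.5 to 50.4 on JUb74 (-1.55, adjusted p = 0.0459). It fell in unk59 too, from 92.0 to 139 CPM down to 19.4 to 21.96 (-2.48). In unk59 gcs-1, the rate-limiting enzyme of glutathione synthesis, fell from 125 and 125 CPM to 76.2 to 79.6 (-0.68), and gsr-1, glutathione reductase, fell by 0.56. gpx-6 and gpx-7, glutathione peroxidase homologues, rose there by 1.18 and 1.103, and the glutaredoxin glrx-22 by 0.96.

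Of 6 SKN-1 pathway regulators none was called in wild type with the food (0 of 6). In unk59 skn-1 fell by 0.67, from 205 to 213 CPM down to 132 and 132, the upstream kinase pmk-1 fell by 0.61, and xrep-4 rose by 0.52. Among 8 MRP genes, ABC transporters of the kind that export glutathione conjugates, mrp-8 rose in both genotypes (1.26 and 1.31). mrp-2 rose in wild type, from 40.8 to 44.2 CPM up to 76.2 to 83.6 (0.91), and fell in unk59 (-0.80). mrp-1 fell in unk59 by 0.62, and mrp-6 rose by 0.82. Of 14 tested superoxide, peroxide and thioredoxin enzymes, the extracellular superoxide dismutase sod-4 rose in wild type by 1.14. In unk59 4 rose, among them mitochondrial sod-3 (3.19), from 1.098 to 1.22 CPM up to 9.38 to 11.8, ctl-3 (2.50) and sod-4 (1.71). The 2 genes of the list that fell there were trx-3 (-2.53) and the peroxisomal catalase ctl-2 (-0.76).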

How the data were processed

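Members and gene lists were chosen with earlier results of these data known. The authors deposited raw counts of read pairs for each gene, as 2 tables for each of 5 samples. The submitters' processing notes name STAR 2.7.10, DESeq2 and the WBcel235 build, and the annotation release is not given in the sources used here. Per the labels' protocols, bleach-synchronised worms were grown from L1, harvested at L4 and sequenced with paired 100-base reads. The files hold 1 more table, with no sample attached, which was left out. The labels call the library strand-specific, but the strand columns split reads evenly (median share 49.8% to 50.1%), so the unstranded column was used, and genes that overlap on opposite strands are not separated. Per library, 6.64% to 7.91% of pairs were in the rows for reads without a gene (unmapped, multimapping, ambiguous or outside genes) and stayed out. The 2 tables of a sample differed by far more than sampling noise (chi-square per degree of freedom 19.8 to 88.9) and entered as 2 libraries.

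Symbols came from the supplied name table, and all 47 members carried the same symbol in Ensembl release 115. Fits used edgeR 4.0.16 in R 4.3.3 with TMM scaling, filterByExpr, 5 group means over all 10 libraries, robust two-sided quasi-likelihood tests and Benjamini-Hochberg adjustment over 15950 genes; the common biological coefficient of variation was 23.4%. CPM uses TMM-scaled library sizes. Ratios for a group with at most 3 reads in each library carry exact 95% intervals. Named genes were, per comparison, up to 6 called members in each direction with the largest change and a mean of at least 1 CPM, members of known role, the 5 highest per kilobase, and up to 3 called genes per pathway list and food comparison; gst-8, gst-19, gst-34, gst-41 and others outside this rule were named after their values were seen. Alternatives were a strand column, median-ratio (RLE) and upper-quartile scaling, no filter, at least 10 reads in every library, DESeq2 1.42.0, a replicate block, and leaving out each library.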

Additional observations from a re-analysis of the deposited data

Results flagged for a closer look

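The food effect differed between unk59 and wild type, by edgeR's interaction test with Benjamini-Hochberg adjustment over all genes, for 10 members. The difference in log2 fold change (unk59 minus wild type) was -2.80 for gst-44 (adjusted p = 0.00960), -2.70 for gst-10 (0.0226), -2.63 for gst-40 (0.0014), -2.30 for gst-11 (0.00195), -2.04 for gsto-2 (0.00757), -1.81 for gst-35 (0.00501), -1.46 for gst-24 (0.00961) and -1.26 for gst-20 (0.0143). It was 1.54 for gst-9 (0.0471) and 3.75 for gst-30 (0.0203), the latter a fitted value that depends on how few wild-type reads are smoothed. The calls for gst-40, gst-11, gsto-2 and gst-35 held in all 17 alternatives. That for gst-9 was lost in 10 of them, those for gst-10, gst-20, gst-30, gst-24 and gst-44 in 6, 3, 3, 2 and 1. Oocyte markers summed to 13.02 to 19.3 CPM in wild type on JUb74 and 1749 to 2843 in unk59 on JUb74, and their part in these differences was not tested.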

How the results depend on the processing

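Of 76 gene results past the threshold, 36 held in all 17 alternatives and 40 were lost in at least 1; among all results named, 1 reversed, gst-4 in the unk59 food comparison, from 0.36 to -0.22 without the first unk59 OP50 library; without the second it was 1.30 and past the threshold. The food comparison in wild type had 6 members past the threshold, 11 by DESeq2, 3 with the replicate block, and 0 to 8 when 1 library was left out. Over those leave-one-out fits the unk59 food comparison ranged from 16 to 25 (24 with all libraries), unk49 against wild type from 4 to 12 (9), unk59 against wild type on JUb74 from 12 to 21 (17), unk49 against unk59 from 6 to 14 (10), and the interaction from 6 to 14 (10). With upper-quartile scaling unk49 against unk59 gave 15. gst-10 in the wild-type food comparison ranged from -3.41 to -1.55 over the alternatives and passed in 5 of the 17. The replicate numbers come from the tables' names, not the labels, and the deviations of same-numbered libraries correlated at -0.29 to 0.26, so they were not taken as pairs. Leaving out a library leaves its group with 1, assumed to vary like the others. The cause of these changes was not tested. The 5 members left untested had at most 11 reads in any library.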
